A study of Mus musculus with 4 samples.

Results

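The genes described here are 49 genes of the lysosome: membrane proteins, acid hydrolases, proteins that carry lipids to those hydrolases, progranulin, and the MiT/TFE transcription factors Tfeb, Tfe3 and Mitf. Members were the rows of the deposited expression matrix whose gene symbol equaled one of the 49 names, which is 49 of 49585 genes. All 49 were expressed, meaning at least 1 FPKM (fragments scaled to transcript length and library total) in at least 1 library, as were 12669 genes in all. RNA was sequenced from 4T1–HM and 4T1–LM, a highly and a low metastatic clone that were each grown from a single cell of the murine 4T1 triple–negative breast cancer line, so each phenotype is represented by 1 clone. HM_Ctrl and LM_Ctrl were kept for 48 h with DMSO, the solvent, whereas HM_DFX and LM_DFX received 50 μmol/L of the iron chelator deferasirox (DFX) in DMSO. Each of the 4 conditions is 1 library. No spread between cultures can be measured and no test between conditions was possible, so every difference below compares single libraries.

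Lysosomes are acidic organelles in which proteins, glycans, lipids and nucleic acids are broken down by hydrolases that are delivered through the secretory pathway. The proton pump of their membrane sets the pH that the hydrolases need, and the digested material leaves through carriers and channels. Many lysosomal genes carry a short promoter element of the E–box type, which the MiT/TFE factors bind. Tfeb and Tfe3 are held in the cytoplasm through phosphorylation by mTORC1 on the lysosomal surface, so that their activity is set mainly by location and not by RNA level. Iron held in ferritin is released in this compartment, and several cathepsins are secreted by tumor cells.

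The libraries held 14363065 to 21883856 fragments, as solved from the steps between FPKM values, and the members had from 11 fragments (Gpnmb in LM_Ctrl) to 46096 fragments (Ctsl in HM_Ctrl). Of the 8 epithelial markers 7 were at 1 FPKM or above in every library, while their summed level was 1615 FPKM for HM_Ctrl, 551 FPKM for HM_DFX, 2118 FPKM for LM_Ctrl and 1074 FPKM for LM_DFX. Of 9 macrophage markers, Adgre1 and Tyrobp were at 0 in all libraries, Ptprc did not exceed 0.0139 FPKM, and the summed level was 12.8, 7.14, 8.29 and 5.80 FPKM in the same order, most of it Cd14. The 7 fibroblast markers summed to 3.51, 4.65, 3.86 and 5.64 FPKM and the 5 melanocyte markers to 0.0841, 0.556, 0.0597 and 0.215 FPKM. These low sums were higher with DFX in both clones. Krt8 and Krt18 made up most of the epithelial sums. Some other epithelial markers moved otherwise, with Krt19 at 46.4 FPKM in LM_Ctrl and 103 FPKM in LM_DFX, Cldn4 at 43.2 FPKM in both, and Esrp1 slightly higher with DFX in both clones. The lower epithelial and macrophage sums under DFX, the latter set mainly by Cd14, stood beside every DFX comparison below. The part of these sums in those comparisons was not tested. In bulk RNA, fewer cells of a type and less RNA per cell cannot be told apart.

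Promoter windows from RefSeq (GRCm38.p6, 250 bases before to 50 bases after a start site, 300 bases in all) were found for 43 of the 49 genes. None was given for Asah1, Ctsh, Npc1, Galns, Laptm4b and Ctsb. Some genes had more than 1 window (Acp5 had 3), and a gene was counted as holding a motif if any of its windows did. CACGTG, the E–box core, reads the same on both strands. It was held by 14 of the 43 genes (32.6%), by 8.09% of 27025 genes with a window and by 12.1% of 8634 expressed genes with a window. TCACGTGA, which contains CACGTG and is also its own reverse complement, was held by 6 of the 43 genes (14.0%), namely Mcoln1, Ctsa, Ctsd, Gla, Cd164 and Cln3. The shares were 1.12% over all genes with a window and 2.33% over expressed genes. Counted by single windows, of which there were 32851, CACGTG was in 7.15% and TCACGTGA in 0.974%. A match describes letters in a window and is not a measured binding site. For each of 4 genes that differed at least 2–fold in a comparison, 1 window that holds the longer motif is printed. It shows how near the element lies to the start site of that window. Ctsa had 2 windows, and the first that holds the longer motif was taken. CACGTG and TCACGTGA are in capitals, and each line is read 5′ to 3′ on the strand of the gene.
Mcoln1 promoter: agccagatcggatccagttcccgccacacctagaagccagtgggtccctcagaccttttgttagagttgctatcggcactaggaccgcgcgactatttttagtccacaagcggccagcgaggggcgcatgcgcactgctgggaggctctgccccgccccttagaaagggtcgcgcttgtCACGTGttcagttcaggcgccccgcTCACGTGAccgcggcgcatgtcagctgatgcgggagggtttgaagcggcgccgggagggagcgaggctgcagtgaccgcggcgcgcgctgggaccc
Ctsa promoter: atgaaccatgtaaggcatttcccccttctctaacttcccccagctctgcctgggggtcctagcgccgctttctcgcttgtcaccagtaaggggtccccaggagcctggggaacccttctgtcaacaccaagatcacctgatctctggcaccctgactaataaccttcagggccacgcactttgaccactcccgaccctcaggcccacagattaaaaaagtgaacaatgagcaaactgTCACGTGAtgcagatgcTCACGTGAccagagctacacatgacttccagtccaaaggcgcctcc
Ctsd promoter: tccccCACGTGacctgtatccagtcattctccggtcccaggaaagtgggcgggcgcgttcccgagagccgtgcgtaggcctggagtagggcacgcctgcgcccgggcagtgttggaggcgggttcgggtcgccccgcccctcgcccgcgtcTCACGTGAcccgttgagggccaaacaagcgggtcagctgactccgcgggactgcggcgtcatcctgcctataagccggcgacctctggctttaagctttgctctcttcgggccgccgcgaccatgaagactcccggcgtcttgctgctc
Gla promoter: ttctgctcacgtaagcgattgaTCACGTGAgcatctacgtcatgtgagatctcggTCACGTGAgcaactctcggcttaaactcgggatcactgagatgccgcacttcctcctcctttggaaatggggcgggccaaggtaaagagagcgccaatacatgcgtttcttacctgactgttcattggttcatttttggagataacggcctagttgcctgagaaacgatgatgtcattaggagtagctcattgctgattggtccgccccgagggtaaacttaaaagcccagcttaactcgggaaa
The windows lie at chr8:3500269-3500568 on the plus strand (Mcoln1), chr2:164833523-164833822 on the plus strand (Ctsa), chr7:142387778-142388077 on the minus strand (Ctsd) and chrX:134600956-134601255 on the minus strand (Gla), each over the 5′ part of its gene. The Ctsa window lies wholly inside the gene, which begins at base 164832873 in the deposited matrix. In these windows, the first base of the TCACGTGA motif farthest from the start site lay 46 bases before the start site in Mcoln1, 13 in Ctsa, 99 in Ctsd and 228 in Gla. Ctsa and Gla held the longer motif at 2 positions.

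In the absence of DFX, lysosomal genes were higher in the highly metastatic clone than in the low metastatic clone. Of the 49 genes, 44 were higher in HM_Ctrl than in LM_Ctrl, 14 by at least 2–fold and none lower by at least 2–fold. Among all expressed genes, 51.4% were higher at any fold, 3.65% at least 2–fold higher and 3.15% at least 2–fold lower. The median log2 ratio of FPKM + 1 was 0.55 over the members and 0.01 over all expressed genes, with quartiles of 0.21 and 1.03 for the members and -0.25 and 0.29 for all genes. This scale understates the change of genes near 1 FPKM. Because depth is known, a 95% exact binomial (Clopper–Pearson) interval was set on each ratio of fragments without the added 1, and it covers counting error only, not the variation between cultures. The 14 genes were Gpnmb, Mcoln1 and Npc1 among membrane proteins, Tpp1, Ctsa, Ctsl and Ctsd among proteases, Neu1, Hexa, Gla and Idua among glycosidases, Asah1 and Ppt1 among lipid genes, and Grn. By the counting interval 41 members (83.7%) were higher and 2 (4.08%) lower in HM_Ctrl, against 33.4% and 29.9% of all expressed genes. These intervals narrow with depth, and the median expressed gene had between 404 and 689 fragments per library. The plot of member levels shows all 49 in the 4 libraries.

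**Figure D1:**
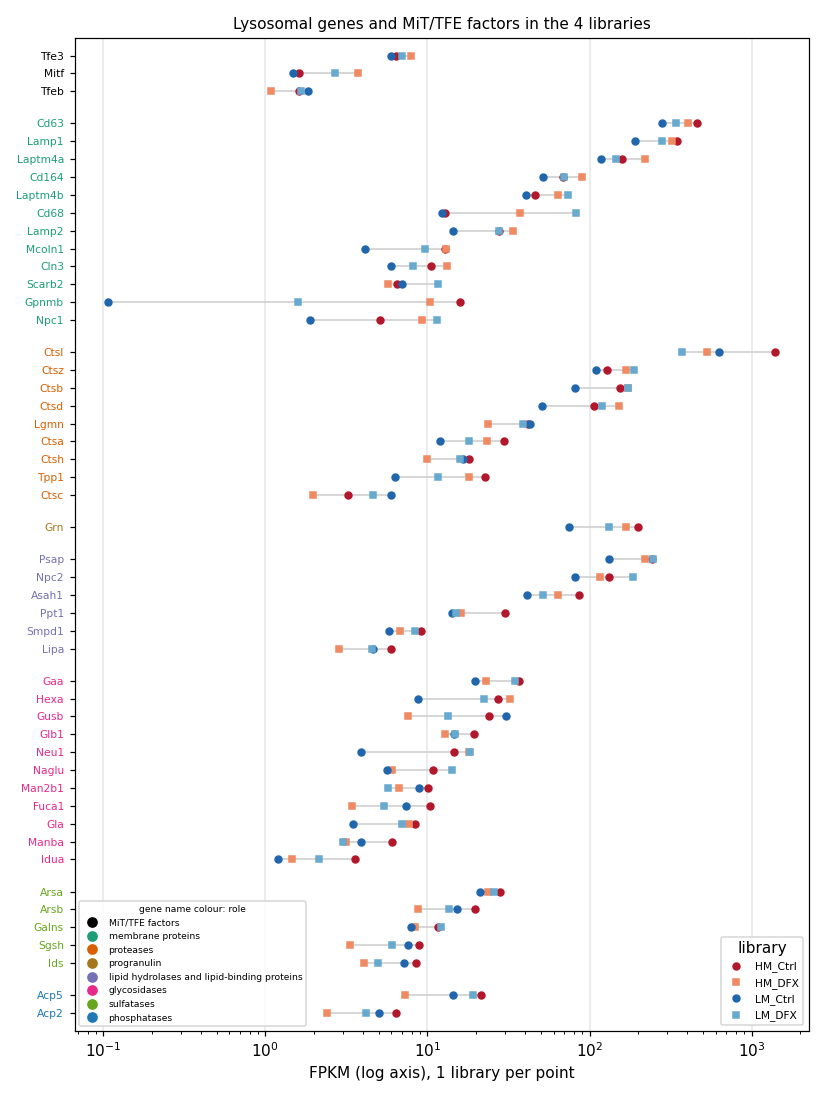
FPKM of each of the 49 genes (log axis) in HM_Ctrl, HM_DFX, LM_Ctrl and LM_DFX, 1 point per library, grouped by role and ordered by mean level. The LM_Ctrl point is the lowest of the 4 for 32 genes and the HM_Ctrl point is the highest for 25.

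The members together took 1.25% of the summed FPKM in HM_Ctrl against 0.661% in LM_Ctrl, and 0.947% in HM_DFX against 0.846% in LM_DFX. One gene, Ctsl (cathepsin L, a cysteine protease that is also secreted), held 0.429% of the summed FPKM in HM_Ctrl and between 0.109% and 0.187% in the other libraries. With Ctsl left out, the shares were 0.818% and 0.474% for the control libraries, and 0.786% and 0.737% with DFX, 4T1–HM first. The order of the clones without drug was therefore the same with and without Ctsl, whereas the step from HM_Ctrl to HM_DFX shrank from 1.25% and 0.947% to 0.818% and 0.786%. HM_Ctrl had the highest level of the 4 libraries for 25 members and the lowest for 0 members. LM_Ctrl had the highest for 4 and the lowest for 32.

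**Figure D2:**
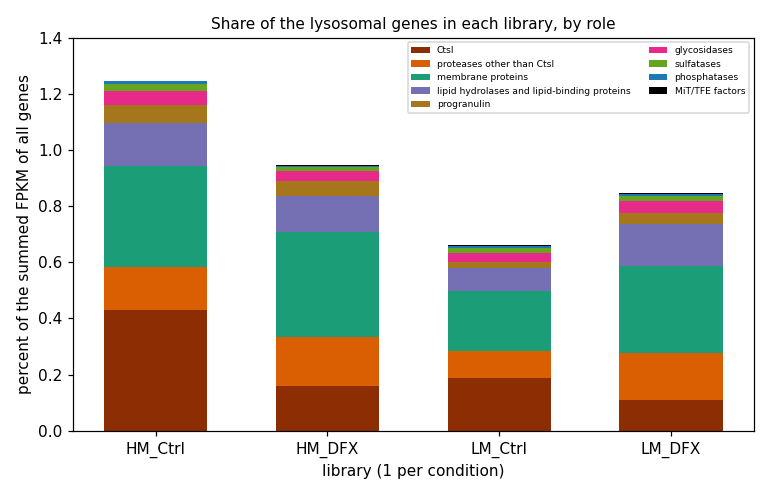
Percent of the summed FPKM of all genes that came from the 49 genes in each library, 1 library per bar, stacked by role with Ctsl apart. The bars reach 1.25%, 0.947%, 0.661% and 0.846%, and the Ctsl segment is largest in HM_Ctrl.

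Membrane proteins had the same direction of DFX response in 4T1–LM, although its size varied (log2 ratios from 0.30 to 2.66). Of the 12, 11 were higher in HM_Ctrl than in LM_Ctrl (median log2 ratio 0.72) and all 12 were higher in LM_DFX than in LM_Ctrl (median 0.76). Gpnmb, a glycoprotein of lysosomes and melanosomes that is a known MITF target, was at 15.8 FPKM in HM_Ctrl, 10.4 FPKM in HM_DFX, 0.107 FPKM in LM_Ctrl and 1.60 FPKM in LM_DFX. It was thus nearly silent in LM_Ctrl, where 11 fragments were counted, and the log2 ratio of the fragments between the control libraries had a counting interval of 6.36 to 8.20. Mcoln1, the calcium and iron channel TRPML1, was at 12.8, 13.1, 4.10 and 9.63 FPKM in the same order of libraries. Its LM_Ctrl level stood apart below the other 3, and LM_DFX was at 2.35 times LM_Ctrl (log2 counting interval 1.09 to 1.38), while the interval for HM_DFX against HM_Ctrl ran from -0.07 to 0.14. Npc1, which exports cholesterol from the lysosome together with Npc2, was at 5.09, 9.28, 1.89 and 11.5 FPKM. Both DFX libraries were above both control libraries for Npc1, and LM_DFX was at 6.10 times LM_Ctrl (2.44 to 2.78).

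Cd68, a heavily glycosylated membrane protein best known as a macrophage marker, was at 12.9 FPKM in HM_Ctrl, 37.4 FPKM in HM_DFX, 12.3 FPKM in LM_Ctrl and 83.1 FPKM in LM_DFX. On the scale of FPKM + 1 it had the highest DFX response of the members in both clones (log2 ratios of 1.46 and 2.66). Without the added 1, it was at 2.89 times HM_Ctrl (log2 counting interval 1.33 to 1.74) and 6.76 times LM_Ctrl (2.57 to 2.95), the latter below the 14.9 times of Gpnmb (3.03 to 4.92), and the 2 control libraries did not differ beyond counting error (-0.18 to 0.33). The summed macrophage markers given above were lower in each DFX library than in its control. That fall came mainly from Cd14, at 12.4, 5.58, 8.09 and 4.19 FPKM in the order given for Cd68. Macrophage markers at 1 FPKM or above numbered 1 in each control library and 2 in each DFX library. One of them, Mrc1, was at 0.159, 1.20, 0.0898 and 1.54 FPKM in the same order of libraries. Their part in the Cd68 levels was not tested. Scarb2, the receptor that carries glucocerebrosidase to the lysosome, was at 6.48, 5.68, 6.94 and 11.6 FPKM, so that LM_DFX alone stood apart. Cd63, a tetraspanin, was at 458, 403, 279 and 343 FPKM, and Lamp1, the main glycoprotein of the limiting membrane, at 347, 325, 191 and 279 FPKM. Both were highest in HM_Ctrl and lowest in LM_Ctrl. Laptm4a, a small transmembrane protein, was at 158, 219, 117 and 145 FPKM and was higher under DFX in both clones. Cln3, a membrane protein lost in a childhood neurodegenerative storage disease, was at 10.5, 13.3, 5.94 and 8.15 FPKM. Lamp2, Cd164 and Laptm4b were also higher under DFX in both clones, with log2 ratios from 0.28 to 0.47 in 4T1–HM and from 0.42 to 0.90 in 4T1–LM.

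The proteases did not behave alike. Ctsl was at 1397 FPKM in HM_Ctrl, 528 FPKM in HM_DFX, 632 FPKM in LM_Ctrl and 373 FPKM in LM_DFX, the most abundant member in each library. It was lower under DFX in both clones, at 0.378 times HM_Ctrl (log2 counting interval -1.43 to -1.38) and 0.590 times LM_Ctrl (-0.79 to -0.73). Ctsd, the main aspartic protease of the lysosome, went the other way at 107, 151, 50.9 and 120 FPKM, and so did Ctsb, an abundant cysteine protease, at 154, 172, 81.8 and 173 FPKM. LM_Ctrl was the lowest library for both, and the other 3 lay between 154 and 173 FPKM for Ctsb. Ctsz, a carboxypeptidase, was at 128, 167, 109 and 188 FPKM and higher under DFX in both clones. In the annotated transcripts of these genes, 28.2% of the 31–base words of Ctsl and 33.2% of those of Ctsd also occurred in another annotated gene, so these 2 levels are uncertain. The extent is unknown for Ctsl, because the length fitted to its FPKM values (1971 bases) was not the annotated one. The median over members was 1.71%.

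For Tpp1 and Ctsa the difference between the control libraries (log2 ratios of 1.69 and 1.24) was larger than either DFX difference, and with DFX the clones differed less (0.59 and 0.35). Tpp1, a tripeptidase, was at 22.6, 18.1, 6.29 and 11.7 FPKM, the largest clone difference among the proteases at 3.59 times LM_Ctrl (log2 counting interval 1.70 to 1.99). Ctsa, which is both a carboxypeptidase and the partner that protects Neu1 and Glb1, was at 29.5, 23.3, 11.9 and 18.1 FPKM. Grn, progranulin, a secreted and lysosomal glycoprotein that supports hydrolase function, followed the same order at 200, 169, 74.9 and 131 FPKM. In all 3 genes HM_Ctrl was the highest library, LM_Ctrl the lowest, and the 2 DFX libraries lay between them. Ctsc, the dipeptidyl peptidase that activates granule proteases, was at 3.24, 1.97, 5.95 and 4.62 FPKM. It was the member with the lowest ratio between the control libraries, 0.544 (-1.08 to -0.68), and was higher in 4T1–LM with and without DFX. Lgmn, the asparaginyl endopeptidase that processes cathepsins, was at 41.9, 23.5, 43.0 and 38.8 FPKM, and Ctsh, an aminopeptidase, at 18.0, 10.0, 16.5 and 15.8 FPKM. For both, HM_DFX alone stood below the other 3 libraries.

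Glycosidases, which trim sugars from glycoproteins, glycolipids and glycosaminoglycans, had a median log2 ratio of 0.83 between the control libraries, -0.64 for DFX in 4T1–HM and 0.52 for DFX in 4T1–LM. Neu1, the sialidase of the lysosome, was at 14.6, 18.1, 3.90 and 18.3 FPKM in HM_Ctrl, HM_DFX, LM_Ctrl and LM_DFX. Only LM_Ctrl was low, and LM_DFX reached 4.69 times that level (log2 counting interval 2.03 to 2.44), with no difference beyond counting error between the 2 DFX libraries (-0.13 to 0.11). Hexa, the alpha chain of the hexosaminidase lost in Tay–Sachs disease, also had its lowest level in LM_Ctrl, at 27.1, 32.1, 8.69 and 22.4 FPKM. Gla, the galactosidase lost in Fabry disease, was at 8.40, 7.70, 3.48 and 6.96 FPKM, again with LM_Ctrl apart from the other libraries. Neither the DFX comparison in 4T1–HM (-0.33 to 0.08) nor the comparison of the 2 DFX libraries (-0.05 to 0.34) was beyond counting error for Gla.

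The other 8 glycosidases were lower in HM_DFX than in HM_Ctrl. Gusb, the lysosomal glucuronidase, was at 24.1 FPKM in HM_Ctrl, 7.61 FPKM in HM_DFX, 30.6 FPKM in LM_Ctrl and 13.4 FPKM in LM_DFX. Both DFX libraries were below both controls for Gusb, at 0.315 times HM_Ctrl (log2 counting interval -1.81 to -1.52) and 0.440 times LM_Ctrl (-1.28 to -1.09). Fuca1, the lysosomal fucosidase, was at 10.4, 3.44, 7.39 and 5.41 FPKM, and HM_DFX was its lowest library. Naglu, which removes N–acetylglucosamine from heparan sulfate, was at 10.8, 6.05, 5.62 and 14.2 FPKM. Its 2 DFX comparisons ran in opposite directions, at 0.561 times HM_Ctrl (-1.07 to -0.60) and 2.52 times LM_Ctrl (1.12 to 1.55). Gaa, the glucosidase that degrades lysosomal glycogen, was at 36.7, 23.1, 19.6 and 34.5 FPKM, and Idua, an iduronidase, at 3.57, 1.47, 1.19 and 2.15 FPKM. Both followed the crossed order of Naglu, lower with DFX in 4T1–HM and higher in 4T1–LM. Man2b1, a mannosidase, was at 10.1, 6.71, 8.88 and 5.68 FPKM, lower with DFX in both clones. Glb1 and Manba were lower in HM_DFX than in HM_Ctrl by log2 ratios of -0.56 and -0.77, and were 0.04 and -0.27 in 4T1–LM.

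All 5 sulfatases were lower in HM_DFX than in HM_Ctrl (median log2 ratio -0.89), 2 of them by at least 2–fold. In that comparison 12.4% of all expressed genes were at least 2–fold lower and 43.7% were higher at any fold. In 4T1–LM 3 sulfatases were lower and 2 higher (median -0.18). Sgsh, the sulfamidase of heparan sulfate degradation, was at 8.86, 3.33, 7.59 and 6.07 FPKM in HM_Ctrl, HM_DFX, LM_Ctrl and LM_DFX. Arsb, which desulfates dermatan and chondroitin sulfate, was at 19.7, 8.73, 15.3 and 13.5 FPKM. That level is uncertain because 39.6% of the 31–base words of its annotated transcripts occurred in another gene. The extent is unknown, because the length fitted to its FPKM values (3989 bases) was not the annotated one. HM_DFX was the lowest library for both Sgsh and Arsb. Sgsh was at 0.376 times HM_Ctrl (log2 counting interval -1.64 to -1.19) against 0.799 times LM_Ctrl (-0.50 to -0.15). Ids, Galns and Arsa had log2 ratios of -0.89, -0.42 and -0.24 in 4T1–HM. The same 3 genes were at -0.46, 0.57 and 0.28 in 4T1–LM. Both acid phosphatases were likewise low in HM_DFX. Acp5, the iron–containing tartrate–resistant phosphatase, was at 21.4, 7.27, 14.3 and 19.2 FPKM, and Acp2, the lysosomal acid phosphatase, at 6.41, 2.40, 5.05 and 4.20 FPKM. Acp5 was at 0.340 times HM_Ctrl (-1.78 to -1.33) and at 1.34 times LM_Ctrl (0.26 to 0.59), so that HM_DFX stood below the other 3.

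Genes of lipid breakdown were higher in HM_Ctrl than in LM_Ctrl for all 6 (median log2 ratio 0.78) and lower in HM_DFX than in HM_Ctrl for all 6 (median -0.40). Psap, the precursor of the saposins that present sphingolipids to hydrolases, was at 242, 221, 131 and 248 FPKM in HM_Ctrl, HM_DFX, LM_Ctrl and LM_DFX. Npc2, the soluble cholesterol carrier, was at 132, 116, 81.9 and 185 FPKM. LM_Ctrl was lowest for both, and LM_DFX was at 1.89 and 2.26 times LM_Ctrl. Asah1, acid ceramidase, was at 85.7, 63.6, 41.4 and 51.6 FPKM, and Ppt1, which removes palmitate from proteins, at 29.9, 16, 14.2 and 15 FPKM. HM_Ctrl alone was high for Ppt1, and the interval for DFX in 4T1–LM ran from -0.05 to 0.21 on the log2 scale. Smpd1 and Lipa had log2 ratios of -0.38 and -0.86 for DFX in 4T1–HM, and of 0.46 and -0.03 in 4T1–LM.

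**Figure D3:**
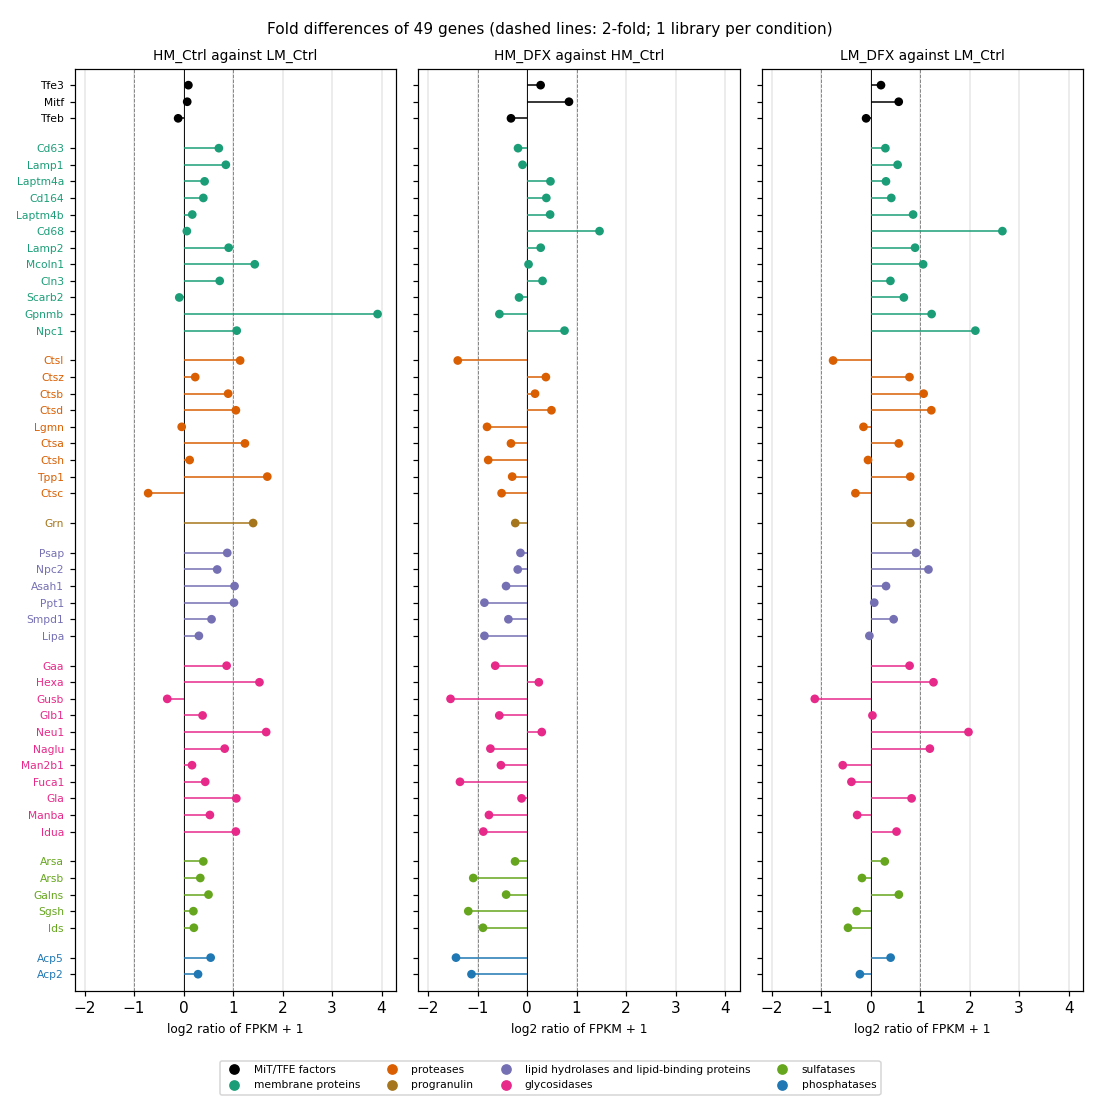
Log2 ratio of FPKM + 1 for each of the 49 genes in HM_Ctrl against LM_Ctrl, HM_DFX against HM_Ctrl and LM_DFX against LM_Ctrl, 1 library per condition, colored by role, with dashed lines at 2–fold. Most points are right of 0 in the first panel (44 of 49) and the third (35 of 49), and left of 0 in the second (34 of 49).

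The transcription factors themselves were expressed at low levels. Tfeb was at 1.62 FPKM in HM_Ctrl, 1.09 FPKM in HM_DFX, 1.83 FPKM in LM_Ctrl and 1.65 FPKM in LM_DFX. Tfe3 was at 6.40, 7.95, 5.92 and 6.99 FPKM, the most abundant of the 3 in every library. Mitf was at 1.62, 3.71, 1.49 and 2.68 FPKM. None of the 3 differed between the control libraries beyond counting error, with log2 intervals of -0.50 to 0.15, -0.02 to 0.25 and -0.21 to 0.45. With DFX, Mitf was at 2.29 times HM_Ctrl (0.92 to 1.47) and 1.80 times LM_Ctrl (0.57 to 1.14), which on the scale with 1 FPKM added are log2 ratios of 0.85 and 0.57. Tfe3 was at 1.24 and 1.18 times its controls. Tfeb was lower in HM_DFX than in HM_Ctrl (-0.96 to -0.18), while the interval in 4T1–LM ran from -0.45 to 0.16. Location and phosphorylation of these proteins are not measured by RNA.

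For DFX in 4T1–HM, 15 of the 49 members were higher and 34 lower, with 1 at least 2–fold higher (Cd68) and 7 at least 2–fold lower (Gusb, Acp5, Ctsl, Fuca1, Sgsh, Acp2 and Arsb). At any fold, 43.7% of all expressed genes were higher. Among all expressed genes 6.93% were at least 2–fold higher and 12.4% at least 2–fold lower, so the members' 7 of 49 (14.3%) lay near that share. The median log2 ratio was -0.33 for the members and -0.10 for all expressed genes. Under median–ratio scaling the median of all expressed genes became 0.00 and the 2–fold shares 8.9% higher and 10.1% lower, the members' median -0.19, with 18 members higher and Arsb no longer past 2–fold. The sign turned under that scaling for Lamp1 (from -0.09 to 0.05), Psap (from -0.13 to 0.01) and Gla (from -0.11 to 0.01).

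For DFX in 4T1–LM, 35 members were higher and 14 lower, while 46.8% of all expressed genes were higher. At least 2–fold higher were 10 (Cd68, Npc1, Neu1, Hexa, Gpnmb, Ctsd, Naglu, Npc2, Ctsb and Mcoln1), or 20.4% of the members, against 7.09% of all expressed genes. Gusb alone was at least 2–fold lower, or 2.04%, against 8.72% of all expressed genes. The median log2 ratio was 0.46 for the members and -0.04 for all genes. Npc1, Neu1, Hexa, Gpnmb, Ctsd and Mcoln1 were also among the 14 genes counted above for HM_Ctrl over LM_Ctrl. Both comparisons use the LM_Ctrl library, and any deviation of that 1 library enters both with the same sign.

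The response of a gene to DFX was then compared between the clones as the log2 ratio in 4T1–HM minus the log2 ratio in 4T1–LM. It was lower in 4T1–HM for 45 of the 49 members, against 56.5% of all expressed genes. The members were not alone in this. Of the lists described below, it was lower for 59 of 71 other lysosomal genes (median -0.50) and 18 of 20 proton pump genes (median -0.57). Among autophagy genes it was lower for 21 of 40 (median -0.05). By at least 2–fold, 14 members were lower and 0 higher, against 5.38% and 3.52% of all expressed genes. The median was -0.84 for the members and -0.08 for all genes. In all, 15 members were higher with DFX in both clones and 14 lower in both, against 33.5% and 42.4% of all expressed genes. Another 20 (40.8%) were lower in 4T1–HM and higher in 4T1–LM, compared with 13.2% of all expressed genes, and 0 had the opposite order. With the counting interval below 0 in 4T1–HM and above 0 in 4T1–LM there were 17 members (34.7%), compared with 4.81% of all expressed genes. Intervals leave 0 more easily at higher depth, and the 2 sets were not matched for depth. The lowest differences were those of Naglu (-1.94), Acp5 (-1.84) and Gpnmb (-1.79), and the 4 members with a higher value in 4T1–HM were Mitf (0.28), Laptm4a (0.16), Tfe3 (0.06) and Man2b1 (0.04). This difference uses all 4 libraries, 1 per condition. It equals the log2 ratio of HM_DFX against LM_DFX minus that of HM_Ctrl against LM_Ctrl. The higher member levels in HM_Ctrl than in LM_Ctrl therefore enter it with a negative sign, and it is not separate from that comparison.

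**Figure D4:**
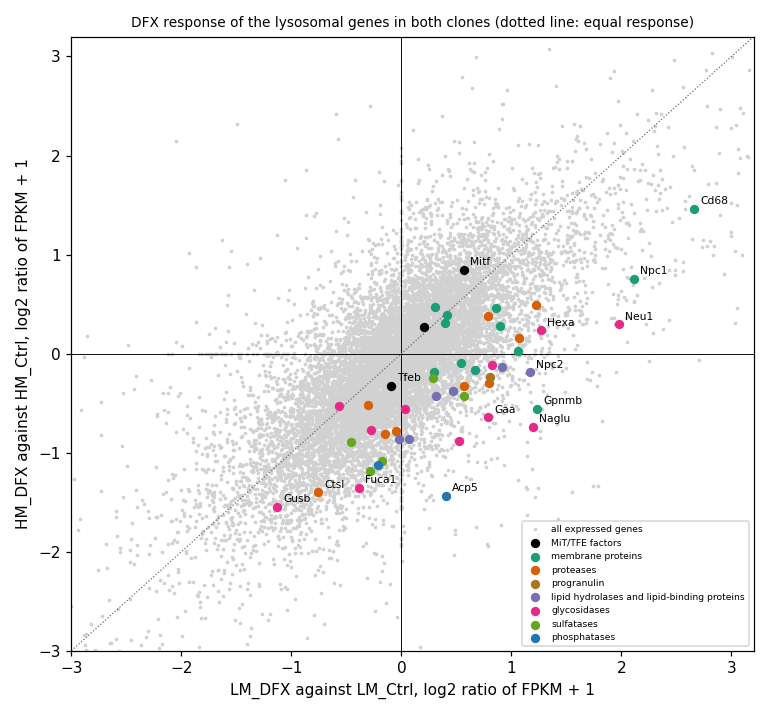
Log2 ratio of FPKM + 1 for DFX in 4T1–LM (horizontal) and in 4T1–HM (vertical), 1 gene per point, for all expressed genes (gray, with 74 genes outside the axes) and the 49 genes colored by role. The colored points lie mostly below the dotted line of equal response, 45 of 49, and 20 are in the quadrant of lower in 4T1–HM and higher in 4T1–LM.

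With DFX in both clones, the member median no longer lay above 0. HM_DFX was higher than LM_DFX for 21 members and lower for 28, with a median log2 ratio of -0.17, against -0.05 for all genes. Of all expressed genes, 45.0% were higher. One member, Gpnmb, was at least 2–fold higher, against 3.31% of all expressed genes, at 6.49 times LM_DFX (log2 counting interval 2.49 to 2.91). Acp5, Cd68 and Naglu were at least 2–fold lower, against 5.05% of all expressed genes, at 0.378, 0.450 and 0.427 times LM_DFX. By role, the median was 0.26 for membrane proteins, -0.01 for proteases, -0.21 for glycosidases, -0.22 for lipid genes and -0.49 for sulfatases. The 5 sulfatases and both phosphatases were all lower in HM_DFX than in LM_DFX.

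The 6 members with TCACGTGA, 4 of which are printed above, were all higher in HM_Ctrl than in LM_Ctrl (median log2 ratio 1.06), all higher in LM_DFX than in LM_Ctrl (median 0.70), and all higher in HM_DFX than in LM_DFX (median 0.36). In 4T1–HM, 4 of the 6 were higher with DFX (median 0.17). The 37 members with a window but without this motif had medians of 0.44, 0.31 and -0.21 in the same comparisons, and of -0.52 for DFX in 4T1–HM. Over expressed genes, the 201 with the motif had medians of 0.20, 0.15, 0.08 and 0.04 for the 4 comparisons in that order, and the 8433 without it 0.02, -0.04, -0.07 and -0.11. With the shorter CACGTG, the 14 members holding it had medians of 0.84 for the control libraries, 0.48 for DFX in 4T1–LM and -0.28 for DFX in 4T1–HM. The 29 without it had 0.44, 0.40 and -0.33, so the medians of the 2 sets for DFX in each clone lay close together. For HM_DFX against LM_DFX the medians were 0.17 with CACGTG and -0.17 without it. These are descriptions of single libraries.

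Genes around this group were described from lists of lysosomal genes that are not members. Of 94 symbols, 71 were expressed, and their median log2 ratio was 0.55 in HM_Ctrl against LM_Ctrl, -0.29 for DFX in 4T1–HM and 0.27 for DFX in 4T1–LM, next to 0.55, -0.33 and 0.46 for the members. At least 2–fold higher and lower were 10 and 1 of the 71 between the control libraries, 5 and 8 with DFX in 4T1–HM, and 7 and 3 with DFX in 4T1–LM. As shares these were 14.1% and 1.41% between the control libraries (3.65% and 3.15% of all expressed genes), 7.04% and 11.3% with DFX in 4T1–HM (6.93% and 12.4%), and 9.86% and 4.23% with DFX in 4T1–LM (7.09% and 8.72%). The shares for DFX in 4T1–HM thus lay near those of all expressed genes. The 2 largest rises and falls were named in each comparison. Ctns, the cystine carrier, was at 12, 15, 2.47 and 9.92 FPKM in HM_Ctrl, HM_DFX, LM_Ctrl and LM_DFX, and Dpp7, a dipeptidyl peptidase, at 4.55, 10.1, 0.591 and 1.16 FPKM. Ctsw, a cathepsin known from cytotoxic lymphocytes, was at 2.52, 1.24, 109 and 27.9 FPKM, and Litaf, a late endosomal membrane protein, at 38.8, 38.0, 58.7 and 53.6 FPKM. Ctns and Dpp7 were thus highest in 4T1–HM and Ctsw and Litaf in 4T1–LM.

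With DFX in 4T1–HM, Mcoln3, the channel TRPML3, had 0.155 FPKM in HM_Ctrl and 3.70 FPKM in HM_DFX, and Rnaset2b, an acid ribonuclease with a near–identical copy that makes its level uncertain, 2.59 and 9.21 FPKM. Tpcn1, an endolysosomal cation channel, had 14.1 and 3.46 FPKM and Gm2a, the activator protein of Hexa, 13.7 and 3.51 FPKM. For Gm2a and Hexa, whose products act on the same ganglioside, the DFX comparisons in 4T1–HM therefore had opposite signs (log2 ratios of -1.71 and 0.24). With DFX in 4T1–LM, Hyal1, a hyaluronidase, had 0.539 FPKM in LM_Ctrl and 9.03 FPKM in LM_DFX, and Scpep1, a serine carboxypeptidase, 67.5 and 239 FPKM. Ctsw and Dnase2a, the acid endonuclease, were lower, the latter at 2.82 and 0.661 FPKM.

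The proton pump and autophagy lists had higher medians for DFX in 4T1–HM than the members did. The 20 expressed genes of the vacuolar proton pump had median log2 ratios of 0.61 for HM_Ctrl against LM_Ctrl, 0.42 for DFX in 4T1–HM and 0.81 for DFX in 4T1–LM. The 40 autophagy genes had medians of 0.23, 0.44 and 0.48. In 4T1–HM, 16 of the 20 pump genes and 31 of the 40 autophagy genes were higher with DFX, against 15 of the 49 members. At least 2–fold higher with DFX were 2 pump and 6 autophagy genes in 4T1–HM, and 6 and 7 in 4T1–LM, and 0 of either list were at least 2–fold lower in either clone. The shares over all expressed genes were 6.93% higher and 12.4% lower in 4T1–HM, and 7.09% and 8.72% in 4T1–LM. No test of these differences between lists was made.

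**Figure D5:**
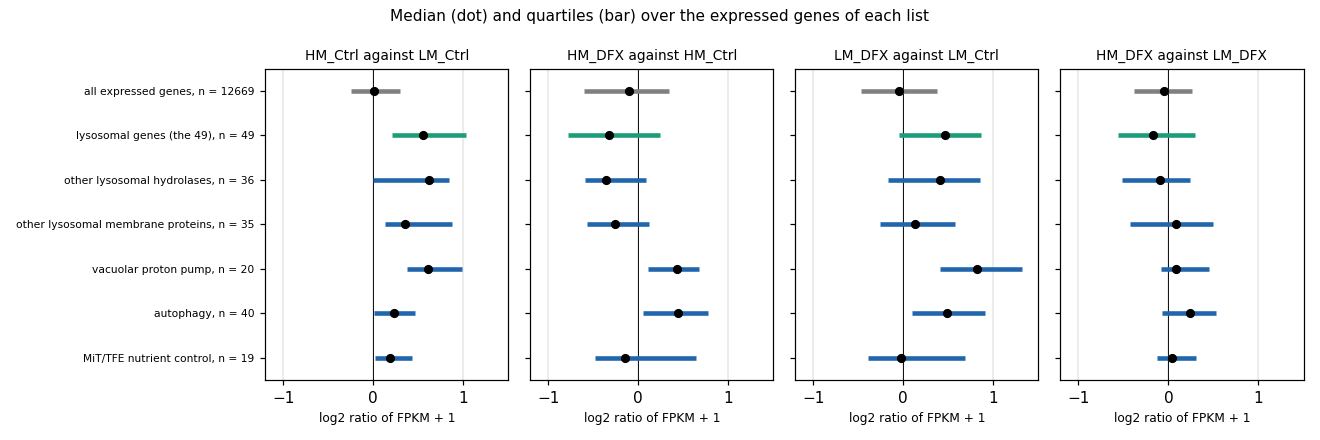
Median (dot) and quartiles (bar) of the log2 ratio of FPKM + 1 over the expressed genes of each list, in 4 comparisons of single libraries. In HM_DFX against HM_Ctrl the 49 genes and the other lysosomal lists have medians below 0, and the proton pump (0.42) and autophagy (0.44) lists above 0.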

How the data were processed

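Total RNA of 4 cultures was sequenced as poly(A)–selected directional libraries (the study's methods also mention depletion of rRNA). Per the labels and methods, the authors checked reads with FastQC, trimmed them with Trimmomatic and aligned them to mm10 with HISAT2, and the submitters' processing notes also name featureCounts. Versions, the annotation release and the use of strand are not given in the sources used here, so genes that overlap on opposite strands may share fragments. The authors deposited 1 matrix of FPKM values. FPKM divides fragments by transcript length and by library total, so a strong gain of a few genes lowers all others.

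Fragments were recovered from the FPKM steps with GENCODE M21 lengths: 96.8% of 18236 genes came out whole within 0.02 fragments in all libraries, as did 41 members, and 8 members (Cd63, Laptm4b, Npc1, Ctsb, Ctsl, Arsb, Lipa and Npc2) were solved with the shortest fitting length, which gives the fewest fragments and the widest intervals. Recovered fragments made up 99.01% to 99.4% of the library totals. A fold is the log2 ratio of FPKM + 1 among genes with at least 1 FPKM in at least 1 library, and 2–fold was used as the limit. The intervals are 95% exact binomial intervals and cover counting error only. With 1 library per condition, no count model was fitted. The fold calculation, the 2–fold call and the counting interval were tested on simulated counts. The recovery of fragments from FPKM steps was not tested on simulated data. The members and lists were chosen with earlier results of these data known. Genes were named if a member changed at least 2–fold in any comparison, was a MiT/TFE factor, was among the 3 largest rises or falls of a comparison or among the 10 most abundant members, and the remaining members within their role. Other lysosomal genes were named if among the 2 largest rises or falls. Scaling, pseudocount, the 2–fold limit and the member set were varied. Python 3.11.15, pandas 2.3.3, numpy 2.4.6, scipy 1.17.1 and matplotlib 3.10.9 were used.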

Additional observations from a re-analysis of the deposited data

Results flagged for a closer look

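The DFX comparison had opposite signs in the 2 clones for the median of the members and for 17 single members, each lower in 4T1–HM and higher in 4T1–LM with the counting interval of each clone on its own side of 0. These 17 were 34.7% of the members, and 4.81% of all expressed genes met the same condition, without matching for depth. With 1 library per condition, the difference between the clones was not tested. It is also not separate from the comparison of the control libraries, because a high HM_Ctrl or a low LM_Ctrl level lowers it. The values are the log2 ratio in 4T1–HM minus that in 4T1–LM. The median over the members was -0.84, from -0.33 in 4T1–HM and 0.46 in 4T1–LM. Among glycosidases the difference was -1.94 for Naglu, -1.43 for Gaa and -1.41 for Idua. Acp5 stood at -1.84, with -1.44 and 0.40 in the clones. Among membrane proteins it was -1.79 for Gpnmb, -0.83 for Scarb2, -0.64 for Lamp1 and -0.48 for Cd63. Lipid genes had -1.36 for Npc2, -1.05 for Psap, -0.84 for Smpd1 and -0.74 for Asah1. Tpp1 and Ctsa, both peptidases, had -1.10 and -0.89, Grn had -1.04, and the sulfatases Galns and Arsa had -0.99 and -0.53. Lamp1 and Psap lose the negative sign in 4T1–HM under median–ratio scaling, at 0.05 and 0.01. Cd63 and Scarb2 keep it there, at -0.04 each. The counting intervals were not computed again under that scaling, so how many of the 17 would still meet the condition is unknown.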

How the results depend on the processing

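No paired analysis was possible because each condition had 1 library, and for the same reason no replicate could be left out. Spread between cultures is unknown, so how far these values would move in new cultures was not tested. Of 588 values of single members under the alternatives, 527 moved by less than their counting interval and 61 by more, and no member past 2–fold changed direction. At a 1.5–fold limit the members counted (all expressed genes in parentheses) were 23 higher (10.5%) and 1 lower (8.7%) in HM_Ctrl against LM_Ctrl, 3 higher (16%) and 16 lower (26%) for DFX in 4T1–HM, 19 higher (16.5%) and 2 lower (20%) for DFX in 4T1–LM, 4 higher (9.95%) and 11 lower (14.6%) in HM_DFX against LM_DFX, and 34 with a lower response in 4T1–HM (16.4%). With 0.1 FPKM added in place of 1, DFX in 4T1–HM had 2 members higher (Mitf joined Cd68), against 9.74% of all genes, and 10 lower (Ids, Idua and Lipa were added), against 18.9%, and HM_DFX against LM_DFX had 5 lower (Ctsc and Scarb2 were added), against 9.34%. These follow from the lower limit or pseudocount itself. The median of HM_DFX against LM_DFX was -0.088 under median–ratio scaling and -0.13 under scaling to the 75th percentile. Under median–ratio scaling, 10 members in place of 14 had a response at least 2–fold lower in 4T1–HM, against 4.59% of all genes. The members' share in HM_Ctrl was 1.24% without the MiT/TFE factors. Without Ctsl the shares were 0.818%, 0.786%, 0.474% and 0.737% in HM_Ctrl, HM_DFX, LM_Ctrl and LM_DFX, and the shares of fragments with all members kept were 1.04%, 0.834%, 0.573% and 0.788%, a measure that gives long transcripts more weight.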

Other observations

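Genes that control the location of the MiT/TFE factors are not members. Of 22 listed, 19 were expressed, with median log2 ratios of 0.19 in HM_Ctrl against LM_Ctrl, -0.15 for DFX in 4T1–HM and -0.02 for DFX in 4T1–LM. The following genes were named after their values were seen. Flcn, folliculin, which acts on the Rag GTPases, was at 22.1 FPKM in HM_Ctrl, 50.1 FPKM in HM_DFX, 9.09 FPKM in LM_Ctrl and 35.4 FPKM in LM_DFX. Its binding partner Fnip1 was at 27.2, 80.6, 8.32 and 31 FPKM, and Fnip2 at 7.11, 16.1, 3.09 and 10.8 FPKM. Rragc, the Rag GTPase on which folliculin acts, was at 55.9, 103, 21.2 and 51.4 FPKM. All 4 were higher with DFX in both clones and higher in 4T1–HM than in 4T1–LM with and without the drug. Akt1, a kinase upstream of mTORC1, was at 123, 44.0, 189 and 65.6 FPKM, lower with DFX in both clones. Tfec, the remaining gene of the MiT/TFE family, was listed at 0 in all libraries.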
